A study of Mus musculus with 4 samples.

Results

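Chemokines are small secreted proteins that guide leukocytes along a gradient, and chemokine receptors are the G protein-coupled receptors that read them. Ligands are named for the spacing of their first cysteines, as CC (Ccl genes), CXC (Cxcl genes), CX3C (Cx3cl1) or C (Xcl1), and receptors carry the name of the ligand class they bind (Ccr, Cxcr, Cx3cr1, Xcr1). In skin, keratinocytes, fibroblasts, endothelium and resident leukocytes make chemokines. Some, such as Ccl27a and Cxcl14, are made by resting epidermis, while others, such as Ccl20 and Cxcl1, are induced by cytokines, injury and microbial signals. Their mRNA was examined here in dorsal skin of mice that overexpress deltaNp63alpha, a p63 isoform found in basal keratinocytes. Every probe set was taken whose gene symbol begins with Ccl, Cxcl, Ccr or Cxcr and a digit, or is Cx3cl1, Cx3cr1, Xcl1 or Xcr1, whatever its signal. This gave 78 of 45037 probe sets that are not controls, for 50 of 18193 genes with a probe set of their own, of which 33 code for ligands and 17 for receptors, and 18 of the genes have several probe sets. Another 4 probe sets list several genes, with family members Ccl19, Ccl21a to Ccl21d, Ccl27a or Ccl27b among them, and were named for no gene.

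Single-colour Affymetrix expression arrays of 2 wild type and 2 bitransgenic mice were compared, all on dorsal skin at postnatal day 16, with 1 animal per array (n = 2 per group throughout). The labels name neither the strain, the driver of the transgene and its inducing treatment, nor sex or litter. Values are deposited array signals on a linear scale, scaled so that the trimmed mean of each array lay between 497.4 and 498.1, and array medians ran from 97.5 to 112.8. Differences are bitransgenic minus wild type on the scale log2(signal + 16), folds are taken on that scale and understate changes of dim probe sets, and a signal under 57.0, the 40th percentile, is called dim. Where a gene has several probe sets they are lettered in the order of their identifiers. For Trp63, which encodes p63, probe set B read 206 and 838 in wild type against 10325 and 15247 in the bitransgenic animals. Probe set C read 161 and 473 against 4644 and 9920. Probe set A read 4968 and 5812 against 5176 and 5302, and probe set D 1891 and 507 against 1572 and 379, both with overlap. The check of the transgene thus depends on the probe set. Over probe sets that were not dim on average, correlations between arrays were 0.918 within wild type, 0.949 within bitransgenic skin and 0.869 to 0.920 across genotypes. The skin's own markers were present: none of 7 keratinocyte or 6 fibroblast markers was dim. In whole skin, fewer cells of a type and less RNA per cell cannot be told apart.

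The base sequence just before the transcription start is shown for the 4 genes called higher below that have an entry in the promoter table, Ccl20, Ccl1, Ccr1 and Cxcl9, and for Cxcl1, since induced chemokine genes are a textbook target of NF-kB. Each run is the 250 bases before the start, 5′ to 3′, from RefSeq on build GRCm38.p6, and capitals mark matches to the NF-kB consensus on either strand.
Ccl20 promoter, chr1:83116516-83116765, plus strand: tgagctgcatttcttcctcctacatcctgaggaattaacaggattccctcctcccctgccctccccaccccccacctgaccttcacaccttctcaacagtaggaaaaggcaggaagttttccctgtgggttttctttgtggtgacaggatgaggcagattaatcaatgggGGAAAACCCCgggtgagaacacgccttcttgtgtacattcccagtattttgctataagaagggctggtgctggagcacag
Ccl1 promoter, chr11:82179813-82180062, minus strand: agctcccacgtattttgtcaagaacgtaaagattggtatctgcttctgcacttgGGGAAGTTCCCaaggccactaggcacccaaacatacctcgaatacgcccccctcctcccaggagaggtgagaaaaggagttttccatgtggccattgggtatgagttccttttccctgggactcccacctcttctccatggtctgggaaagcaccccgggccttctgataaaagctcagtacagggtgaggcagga
Ccr1 promoter, chr9:123968693-123968942, minus strand: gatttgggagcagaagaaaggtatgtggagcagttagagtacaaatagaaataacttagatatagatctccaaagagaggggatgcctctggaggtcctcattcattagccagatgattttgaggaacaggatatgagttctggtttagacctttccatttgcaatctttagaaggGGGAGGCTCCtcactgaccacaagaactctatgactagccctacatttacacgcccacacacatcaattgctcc
Cxcl9 promoter, chr5:92328080-92328329, minus strand: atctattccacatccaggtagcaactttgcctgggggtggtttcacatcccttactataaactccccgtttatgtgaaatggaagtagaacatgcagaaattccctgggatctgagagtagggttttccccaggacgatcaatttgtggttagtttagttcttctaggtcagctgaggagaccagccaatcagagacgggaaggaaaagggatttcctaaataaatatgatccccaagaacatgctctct
Cxcl1 promoter, chr5:90890995-90891244, plus strand: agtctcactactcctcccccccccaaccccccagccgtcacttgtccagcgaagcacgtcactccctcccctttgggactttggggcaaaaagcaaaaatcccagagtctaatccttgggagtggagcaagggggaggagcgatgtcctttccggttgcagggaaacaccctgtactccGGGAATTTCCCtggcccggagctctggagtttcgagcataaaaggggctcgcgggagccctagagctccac
The match ended 71 bases before the start in Ccl20, 65 in Ccr1, 61 in Cxcl1 and 186 in Ccl1, where Cxcl1 and Ccl1 each held 2 overlapping matches. No match lay in the Cxcl9 window, which says only that these letters are not in it. Over the family, 37 of 50 genes had 41 promoter entries, and 10 of these (24.4%) held an NF-kB match, against 7.25% of all 32851 promoters. The other holders were Ccl9, Ccr3, Ccr6, Cxcl10, Cxcl2 and Cxcl3. The AP-1 letters TGANTCA were in 5 entries (12.2% against 6.75%), and the interferon-response letters GAAANNGAAA in 2, those of Cxcl10 and Cxcl14 (4.88% against 2.98%). CATGNNNNNNCATG, a pair of p53 and p63 half-sites, was in 0 of 41 entries and 0.49% of all promoters. With letters this rare, 41 entries are too few for their absence to be read as a difference. All searches covered both strands, and a match is a description of the letters, not a bound site.

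The comparison asked how chemokine and receptor mRNA changed when deltaNp63alpha was overexpressed in skin. Most members were higher in bitransgenic skin. Of 78 probe sets, 62 had a positive and 16 a negative difference, and the median was 0.72, or 1.65-fold, against 0.016 over all probe sets. Both bitransgenic arrays read above both wild type arrays for 43 of the 78 (55.1%), compared with 20.6% of all probe sets, and both read below for 8 (10.3%), compared with 19.3%. At an unadjusted p under 0.05 in limma, 25 members were higher and 2 lower, where 4.53% and 5.44% of all probe sets were. None of the 78 passed an adjusted p of 0.05 in limma over all 45037 probe sets, which called 0.173% of them. Ccl20 came nearest (adjusted p = 0.0520), followed by Cxcl16 (0.0643). The ligands (median 0.77 over 51 probe sets) and the receptors (0.65 over 27) were both shifted up. The member median was 0.58 between the arrays numbered replicate 1 and 0.67 between those numbered replicate 2. The labels do not say that the numbers mark pairs, so this pairing is arbitrary. With 2 animals against 2, an exact permutation test of any single value cannot go below p = 0.333.

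When 1 probe set stood for each gene and dim genes were left out, limma over 13070 genes called 6 of 35 member genes, all higher: Ccl20, Cxcl16, Ccl2, Ccl1, Ccr1 and Cxcl9. The share called higher over all those genes was 0.750%. Each of the 6 had at least 1 wild type array above 57.0, but the wild type mean of Ccl20, 44.5, lay under it. Ccl20 thus met the filter, which acts on the mean of all arrays, only through its bitransgenic signals. Over the 27022 probe sets past the same filter, Ccl20, Cxcl16 (probe set A) and Ccl2 passed, where 0.207% were called higher. The gene-level calls rested on few animals. Leaving out 1 array leaves 1 animal in a group. Without either bitransgenic replicate most of the 6 were no longer called. Without either wild type replicate calls increased among the members, but also over all genes. The difference of Ccl20 was 4.20 and 4.22 without bitransgenic replicate 1 and 2, and 3.59 and 4.84 without wild type replicate 1 and 2. With dim genes kept in, Ccl20, Cxcl16 and Ccl2 passed, while Ccl1, Cxcl9 and Ccr1 had adjusted p values of 0.0509, 0.0552 and 0.0557. "Rose" is used below only of these 6 genes, at the gene level.

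**Figure D1:**
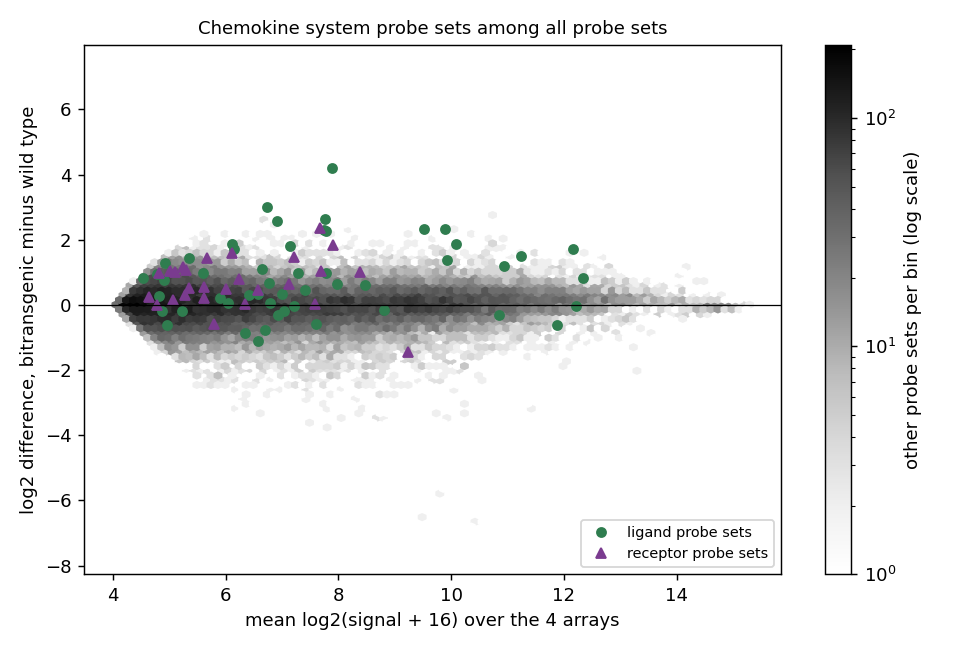
Log2 difference (vertical axis) against mean log2(signal + 16) over the 4 arrays (horizontal axis) for ligand probe sets (green circles), receptor probe sets (purple triangles) and all other probe sets (grey bins, darker where there are more). Most of the 78 chemokine system points lie above 0, with Ccl20 highest at 4.21 and Cxcr4 lowest at -1.44.

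Among ligands made by epithelium, Ccl20 had the largest difference of the family. Ccl20 draws CCR6-bearing dendritic cells and T cells into inflamed epithelia. Its signal was 19.8 and 69.2 in wild type, against 1016 and 1000 with the transgenes, so both bitransgenic arrays stood far above wild type and nearly alike. The difference was 4.21 ± 0.49 (SE), an 18.5-fold rise (gene-level adjusted p = 0.0127, limma). Ccl20 entered that filtered test only through its bitransgenic signals. In limma without the filter, its adjusted p was 0.0520 over all probe sets and 0.0231 at the gene level. The size of the difference depends on the pseudocount, since wild type replicate 1 was dim: a pseudocount of 1 gave 4.72 and 64 gave 3.34. The receptor gene Ccr6 read 142 and 61.9 in wild type, against 169 and 147 with the transgenes, a difference of 0.65 (95% interval -0.55 to 1.85).

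Cxcl16, a membrane-bound chemokine that is also a scavenger receptor, rose at the gene level and was higher without overlap in both of its probe sets. For probe set A the signal was 461 and 363 in wild type, against 1760 and 2580 with the transgenes (2.34 ± 0.31, 5.05-fold, gene-level adjusted p = 0.0193). For probe set B it was 414 and 234 against 1406 and 1902 (2.33 ± 0.36). Both wild type values lay below both bitransgenic ones in each case, and the sizes differed by less than their errors. Its receptor gene Cxcr6, found on T cells and natural killer T cells, read 174 and 173 against 171 and 186 for probe set B (0.03, 95% interval -0.85 to 0.92). The other probe set of Cxcr6 differed by 0.01 (-1.11 to 1.14).

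No chemokine of resting epidermis passed. Cxcl14, made by basal and suprabasal keratinocytes, had probe sets that disagreed. Probe set B read 2813 and 5348 in wild type, against 5417 and 8749 with the transgenes (0.83 ± 0.40, adjusted p = 0.583). Probe set A read 3632 and 6385 against 3339 and 6573 (-0.04 ± 0.43). For both, replicate 2 was above replicate 1 in each genotype. Ccl27a, a ligand that brings CCR10-bearing T cells to skin, read 280 and 176 against 153 and 132 (-0.59 ± 0.41, adjusted p = 0.728). A probe set that lists Ccl27a with Ccl27b and other loci read 8023 and 4471 against 3745 and 8628, and the groups overlapped. The 3 probe sets of Ccl28, a mucosal CCR10 ligand, differed by -0.18 to 0.07 and those of Ccl25, which binds CCR9, by -0.19 and 0.33. Cx3cl1 (fractalkine) had probe sets from -0.60 to 0.77, and the 2 past the filter overlapped between groups. Cxcl17 differed by 0.33 ± 0.47.

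Of 4 genes listed together as monocyte CC ligands, Ccl2, Ccl7, Ccl8 and Ccl12, only Ccl2 passed, at the gene level. All 4 were higher without overlap, where 20.6% of all probe sets were, and their median was 2.14. Ccl2 (MCP-1) read 71.6 and 71.0 in wild type, against 637 and 442 with the transgenes, a 6.27-fold rise (2.65 ± 0.38, gene-level adjusted p = 0.0199). Ccl8 read 3706 and 1674 against 7848 and 8778 (1.73 ± 0.40, adjusted p = 0.222). Ccl12 read 73.3 and 11.7 against 276 and 279 (2.56 ± 0.63, adjusted p = 0.251), so the wild type arrays differed far more than the bitransgenic ones. Ccl7 read 74.3 and 36.5 against 158 and 107 (1.09 ± 0.50).

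Of 7 probe sets for MIP-type CC ligands, made largely by myeloid cells, 6 were higher without overlap, where 20.6% of all probe sets were. None passed over all probe sets. Ccl4, Ccl6 and Ccl9 did not pass at the gene level, and Ccl3 and Ccl5 were too dim on average to enter that test. Ccl6, a chemokine found in rodents, read 567 and 539 in wild type, against 1798 and 2320 with the transgenes for probe set B (1.85 ± 0.26, adjusted p = 0.0814). Its other probe set read 1443 and 1378 against 3289 and 4959 (1.51 ± 0.28, adjusted p = 0.156, gene-level 0.0525), with no overlap in either. Ccl9, its close relative, differed by 1.19 and 1.38 in its 2 probe sets, again without overlap. Ccl5 (RANTES) read 5.60 and 12.3 against 109 and 19.6 and rested mostly on bitransgenic replicate 1. Ccl3 read 3.0 and 3.9 against 60.9 and 12.8, in the same way. Ccl4 read 152 and 117 against 127 and 134, with overlap (-0.03, 95% interval -1.01 to 0.95).

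Among 9 probe sets for receptors of monocytes and macrophages, 5 were higher without overlap, where 20.6% of all probe sets were, and 4 overlapped. All 5 belong to Ccr1 or Ccr2, and only Ccr1 passed, at the gene level. Ccr1, the receptor of the MIP-type ligands on monocytes and neutrophils, read 58.0 and 93.4 in wild type, against 411 and 486 with the transgenes, a 5.14-fold rise (2.36 ± 0.40, gene-level adjusted p = 0.0313). Its other probe set was dim on all arrays and differed by 1.08. Ccr2, also a receptor of monocytes, had 4 probe sets with differences of 0.56, 1.01, 1.03 and 1.84. The largest was that of probe set B, which read 89.0 and 138 against 315 and 613 (adjusted p = 0.251). Probe set A, which had the highest mean, read 246 and 193 against 217 and 942, so its difference came from bitransgenic replicate 2 alone (gene-level adjusted p = 0.505). Cx3cr1, of resident macrophages and dendritic cells, read 93.9 and 43.5 against 93.6 and 97.3 (0.46, 95% interval -0.74 to 1.67), and Ccr1l1 was dim throughout.

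Of 8 probe sets for CXC ligands that carry the ELR motif and attract neutrophils, 6 were higher without overlap, where 20.6% of all probe sets were. None passed over all probe sets. Only Cxcl1 entered the gene-level test, where it did not pass, since the other ELR genes were too dim on average. In wild type skin Cxcl2, Cxcl3, Cxcl5, Cxcl15 and probe set A of Cxcl1 were dim. Cxcl1 (KC) differed between its 3 probe sets. Probe set A read 37.2 and 10.5 in wild type, against 487 and 166 with the transgenes, a difference of 3.01 ± 0.66 (adjusted p = 0.209). Its size depends on the pseudocount, with 3.77 for a pseudocount of 1 and 2.04 for 64. Probe set B read 269 and 275 against 413 and 426 (0.60 ± 0.30), and probe set C read 176 and 198 against 416 and 215 (0.64 ± 0.42). All 3 were without overlap, but the gene entered the gene-level test through probe set B and had an adjusted p of 0.381 there. Cxcl2 read 24.2 and 22.5 against 196 and 61.5 (1.70 ± 0.60, adjusted p = 0.409), and Cxcl5 read 18.2 and 23.0 against 175 and 75.4 (1.85 ± 0.53, adjusted p = 0.313). Cxcl3 read 15.3 and 22.5 against 60.2 and 44.7. In Cxcl1 (probe set A), Cxcl2, Cxcl3 and Cxcl5 bitransgenic replicate 1 was above replicate 2. Cxcl15, known from lung, was dim on all arrays. The neutrophil receptor gene Cxcr2 read 15.5 and 7.90 against 11.4 and 11.7 and was dim on all arrays.

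Among the ligands induced by interferon, which bind CXCR3 on activated T and NK cells, Cxcl9 read 98.6 and 70.9 in wild type, against 413 and 521 with the transgenes, a 4.81-fold rise for probe set A (2.27 ± 0.38, gene-level adjusted p = 0.0313). The other Cxcl9 probe set was dim on all arrays and differed by 0.22. Cxcl10 read 135 and 65.4 against 187 and 218 (0.98 ± 0.47, adjusted p = 0.576). Cxcl11 read 87.6 and 55.6 against 369 and 33.3 for probe set A, so the groups overlapped. Their receptor gene Cxcr3 read 88.8 and 60.9 against 204 and 263 (1.47 ± 0.42, adjusted p = 0.317), with no overlap.

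Ccl17 and Ccl22 bind CCR4 on skin-homing and type 2 T cells. Ccl17 read 69.4 and 50.2 in wild type, against 152 and 395 with the transgenes (1.81 ± 0.55, adjusted p = 0.339). Ccl22 read 174 and 113 against 366 and 236 (0.99 ± 0.42, adjusted p = 0.516). Neither overlapped between groups. The receptor gene Ccr4 read 34.8 and 76.2 against 25.9 and 33.2 and differed by -0.59 (95% interval -1.78 to 0.59). Ccl1, a ligand of CCR8, read 70.7 and 91.7 against 427 and 494, a 4.92-fold rise (2.30 ± 0.37, gene-level adjusted p = 0.0273). Ccr8 read 15.9 and 4.0 against 33.2 and 49.8, all dim. Ccr10, the receptor for Ccl27a and Ccl28, read 21.6 and 9.40 against 77.9 and 57.8 (1.43 ± 0.45, adjusted p = 0.359). The eotaxins, which bind CCR3 on eosinophils, were not higher: Ccl11 read 556 and 374 against 364 and 462 (-0.15, 95% interval -0.96 to 0.67). Ccl24 read 126 and 68.0 against 11.4 and 116, and Ccr3 was dim throughout.

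Of 5 probe sets for Cxcl12 and Cxcl13, ligands of stroma and lymphoid organs, 3 were lower without overlap, where 19.3% of all probe sets were, 1 was higher and 1 overlapped. None passed. Cxcl12 (SDF-1), made by fibroblasts and endothelium, read 5651 and 3805 in wild type, against 2865 and 3190 with the transgenes for probe set C, 1.53-fold lower (-0.61 ± 0.28, adjusted p = 0.559). Probe set A read 2152 and 1936 against 1418 and 1883 (-0.32 ± 0.26), also without overlap, while probe set B was dim on all arrays and differed by 0.95. Its receptor gene Cxcr4 had the lowest value of the family, reading 830 and 1140 against 239 and 505, 2.71-fold lower (-1.44 ± 0.41, adjusted p = 0.313; gene-level 0.143). Cxcl13, a B cell attractant, read 141 and 108 against 47.0 and 51.3 for probe set A (-1.10 ± 0.44), but 85.4 and 168 against 99.4 and 87.1 for probe set B, where the groups overlapped. Xcl1, a lymphocyte-derived ligand of XCR1, read 139 and 101 against 58.7 and 68.9 (-0.76 ± 0.44). The probe set that lists several Ccl21 genes, which draw dendritic cells to lymph vessels, read 3010 and 1510 against 1760 and 1576 (-0.35), with overlap. The probe set that lists Ccl19 with other loci read 488 and 79.9 against 447 and 140 (0.29), also with overlap. Their receptor gene Ccr7 read 18.2 and 30.0 against 121 and 89.3 (1.60 ± 0.46, adjusted p = 0.318). Cxcr5, which binds Cxcl13, was dim throughout, and Xcr1, which binds Xcl1, differed by 0.48. Of the 5 probe sets of Ccr9, a gut-homing receptor, 4 were dim on all arrays and differed by 0.14 to 1.03. The remaining one, probe set C, read 42.5 and 39.9 against 97.7 and 71.6 (0.80 ± 0.45, adjusted p = 0.655), without overlap.

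**Figure D2:**
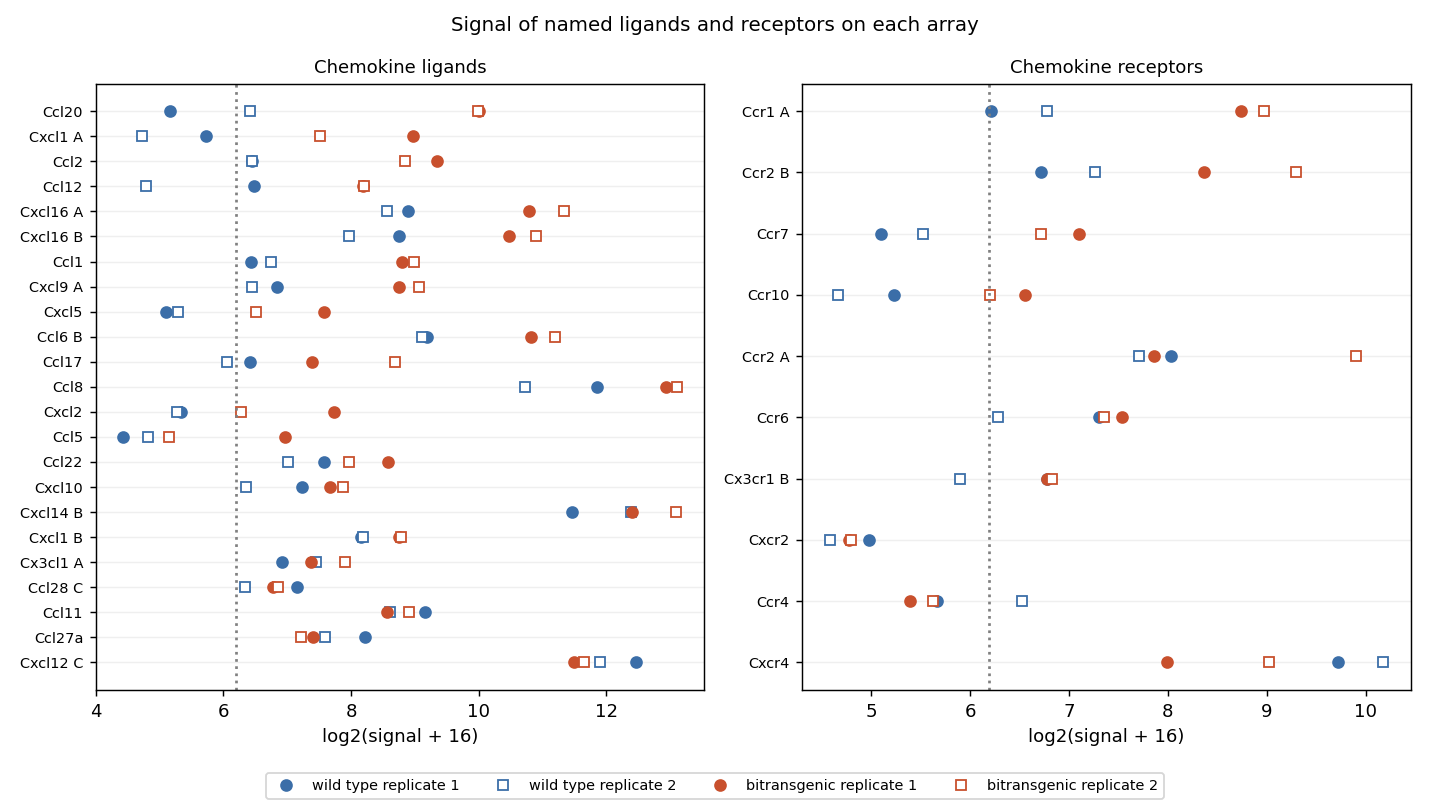
Log2(signal + 16) on each array (horizontal axis) for the named ligands (left) and receptors (right), ordered by their difference and lettered by probe set where a gene has several, with wild type in blue, bitransgenic in red, replicate 1 filled and replicate 2 open. The dotted line marks a signal of 57.0. From Ccl20 down to Cxcl10 the bitransgenic points lie to the right of the wild type points, and for Cxcl12 and Cxcr4 they lie to the left.

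**Figure D3:**
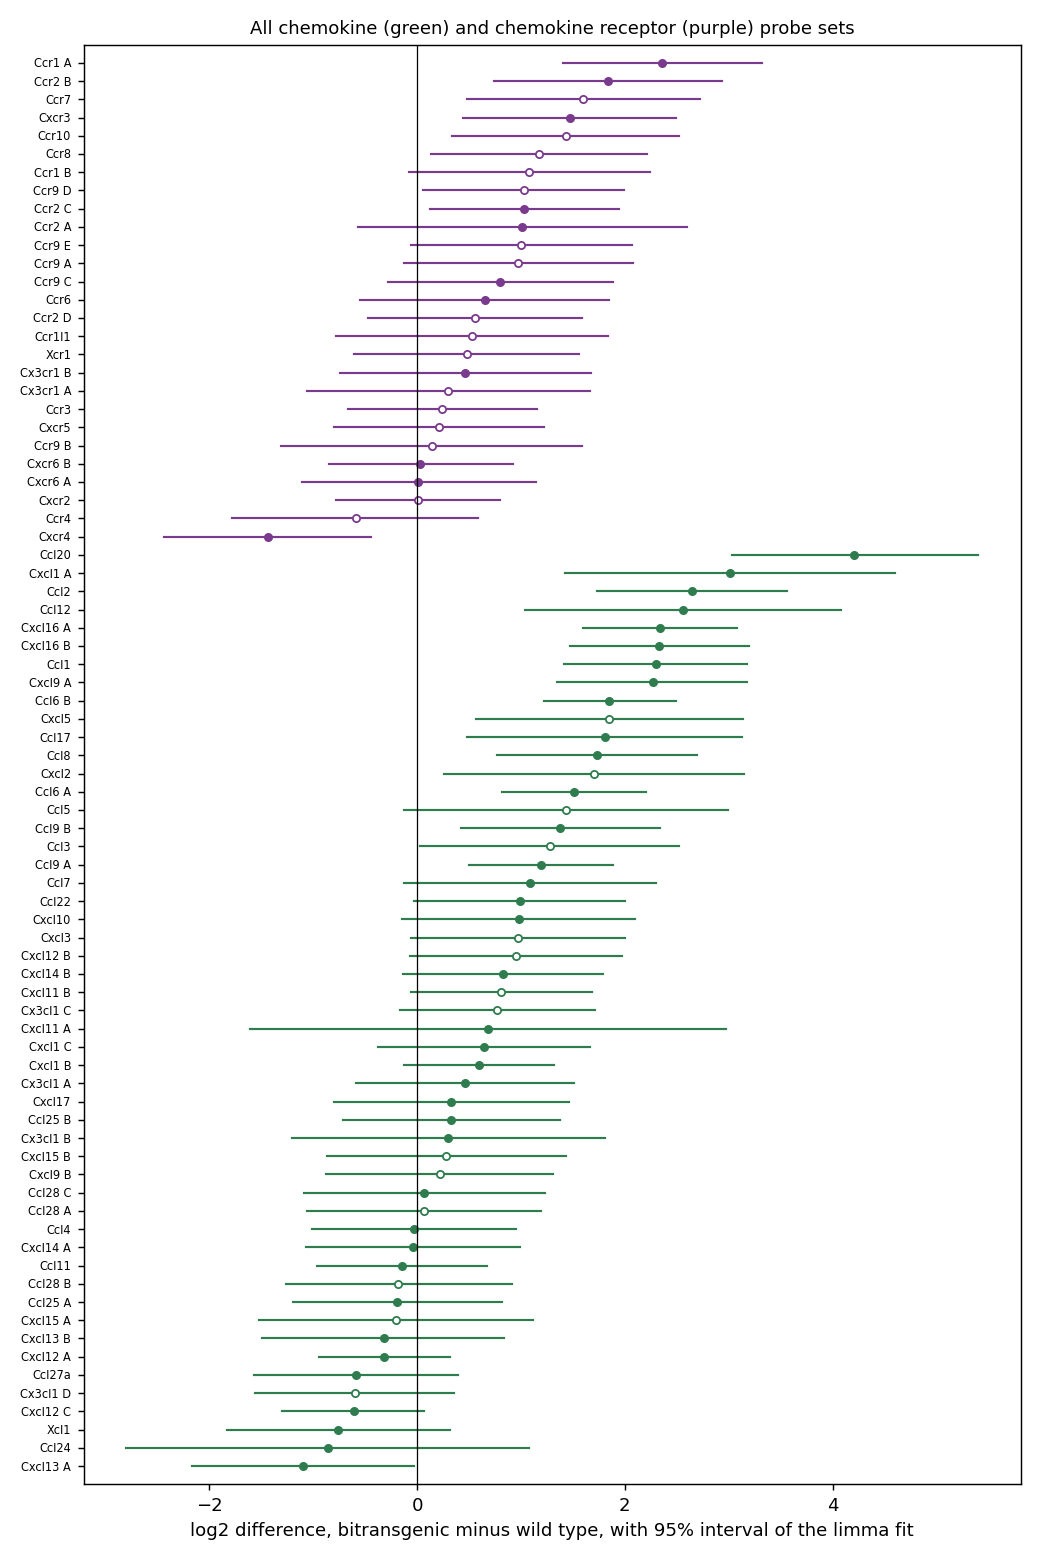
Log2 difference with its 95% interval from limma for all 78 probe sets (rows), receptors in purple and ligands in green, letters naming a gene's probe sets; open circles are probe sets below the filter on dim signal. Intervals are unadjusted: that of Ccl20 runs from 3.03 to 5.40 and that of Cxcr4 from -2.44 to -0.44.

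Many ligand genes lie next to each other, and the members of a row did not all move alike. In RefSeq gene order on GRCm38.p6, Ccl2, Ccl7, Ccl11, Ccl12, Ccl8 and Ccl1 follow each other with no other coding gene between them. By the probe set of highest signal, their differences were 2.65, 1.09, -0.15, 2.56, 1.73 and 2.30, so Ccl11 lay apart from its neighbours on both sides. In the next row, Ccl5, Ccl9, Ccl6, Ccl3 and Ccl4 had 1.43, 1.19, 1.51, 1.28 and -0.03. In the CXC row, Cxcl5, Cxcl3, Cxcl15, Cxcl1 and Cxcl2 had 1.85, 0.97, -0.20, 0.60 and 1.70. Cxcl15 was dim on all arrays, and the value of Cxcl1 is that of probe set B, while its probe set A had 3.01. Cx3cl1, at 0.46, lies between Ccl22 at 0.99 and Ccl17 at 1.81.

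**Figure D4:**
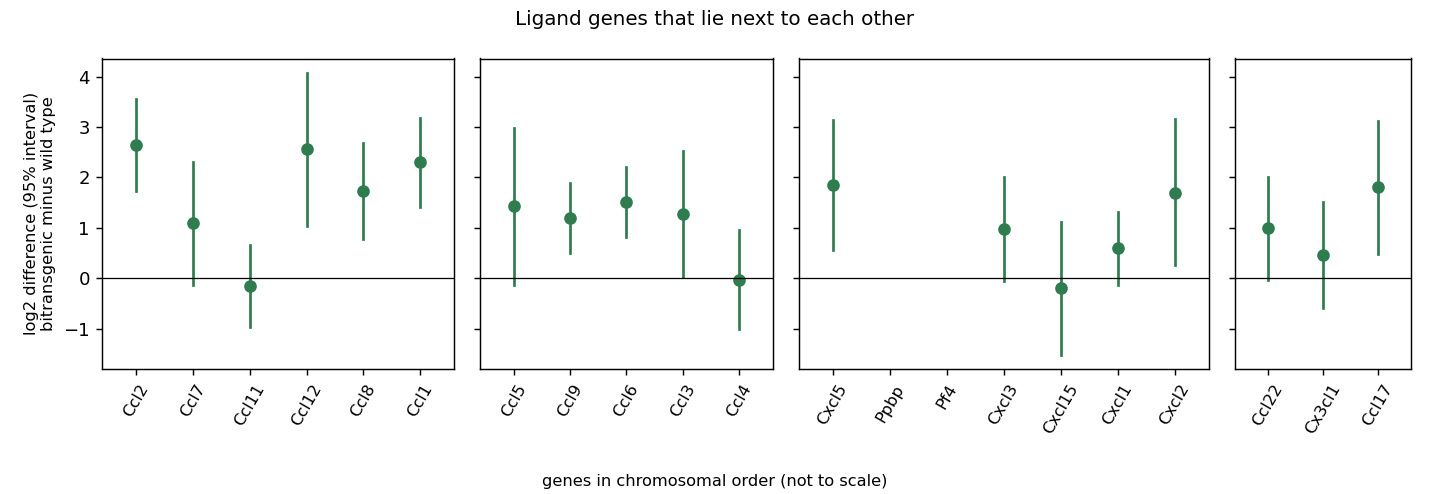
Log2 difference with its 95% interval from limma for ligand genes in their chromosomal order (not to scale), 1 panel per row of neighbours, by the probe set of highest signal. Ccl11 at -0.15 and Ccl4 at -0.03 lie near 0 within rows whose other genes lie between 1.09 and 2.65; Ppbp and Pf4 are shown by name without a value because their symbols fall outside the family rule.

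Other genes of the pathway were taken from lists. Of 6 genes of a list of atypical chemokine receptors, most of which bind chemokines without the usual signal, and related receptors, none passed. All 6 values were negative, from -1.12 to -0.03, and 5 of the 6 overlapped between groups. Ackr3, which takes up Cxcl12, was the lowest at -1.12, reading 1852 and 1076 in wild type, against 774 and 531 with the transgenes (adjusted p = 0.366, gene-level 0.184). Of 19 genes of receptor signalling and processing, none passed over all probe sets, and Dpp4, a protease that trims several chemokines including Cxcl12, passed at the gene level and also when dim probe sets were left out. It read 1403 and 2141 against 331 and 375 (-2.25, adjusted p = 0.0727 over all probe sets and 0.0444 past the filter, gene-level 0.0216). Ackr3, Rac2, Rgs2 and Il18 are named after their values were seen. Rac2, a GTPase of leukocyte migration, was at 1.19 and Rgs2, which dampens G protein signals, at -1.45. Of 13 cytokines that can induce chemokines, none passed over all probe sets and Tslp passed at the gene level. Of the 13, 12 were positive, the median was 0.93, and 5 (Tnf, Ifng, Il4, Il13 and Lta) were dim on all arrays. Tslp, an epithelial cytokine of type 2 inflammation, read 52.4 and 53.3 against 314 and 511 (2.60, adjusted p = 0.111, gene-level 0.0274). Both of its wild type signals were dim, so it entered the gene-level test only through its bitransgenic signals. Il18, stored by keratinocytes, read 2941 and 2048 against 5658 and 6114. Of 9 NF-kB pathway genes, none passed, 8 were positive and the median was 0.51. The platelet chemokines Pf4 and Ppbp were at 0.41 and 1.32, and neither passed over all probe sets. Pf4 did not pass at the gene level either, and Ppbp was too dim on average to enter that test.

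Markers of other cell types are given beside these values, and their part in the chemokine differences was not tested. No leukocyte marker passed over all probe sets, and none of those that entered the gene-level test passed there. Camp, Ltf, Elane, Cd4, Ly75, Fcer1a and all B cell, eosinophil and NK cell markers were too dim on average to enter it. For comparison, 20.6% of all probe sets were higher and 19.3% lower without overlap. All 9 macrophage markers had positive differences, 7 of them without overlap, with a median of 0.87. Their summed signal was 18398 and 11912 in wild type, against 23963 and 33716 with the transgenes, and none was dim on all arrays. All 6 neutrophil markers were higher without overlap (median 1.83), but their sums were small, 229 and 202 against 810 and 1024, with Elane dim on all arrays. Of 8 dendritic cell markers 6 were positive (median 0.92), with sums of 13670 and 7599 against 11688 and 23011 that overlapped. The largest difference of that list was negative: H2-Eb1, a class II antigen-presentation gene, read 2242 and 1002 against 215 and 360 (-2.36, adjusted p = 0.165). The 8 T cell markers had a median of 0.41 with overlapping sums of 1439 and 999 against 1069 and 1390, and Cd3g, a subunit of the T cell receptor complex named after its value was seen, was at -0.72 without passing. Of 4 B cell, 3 eosinophil and 4 NK cell markers, 2, 2 and 3 were dim on all arrays, with sums of at most 193 on any array. Mast cell markers had a median of -0.02 and endothelial markers 0.18. All 6 fibroblast markers were lower without overlap (median -0.92), with sums of 130752 and 114607 against 59197 and 77343, beside the lower values of Cxcl12, and all 5 muscle markers were lower (median -3.34). None of these marker genes passed limma's threshold over all probe sets, while 4 of the muscle markers passed at the gene level, Acta1 (adjusted p = 0.0408), Ckm (0.0345), Myh4 (0.0323) and Mylpf (0.0339). All 5 muscle markers passed with replicate number as a block. Keratinocyte markers had a median of -0.02 over members that went both ways. Krt1, a keratin of differentiating layers, was at 1.58 and the desmosomal gene Dsg1a at -0.68, both without overlap and without passing. H2-Eb1, Krt1 and Dsg1a are named after their values were seen.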

How the data were processed

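The deposited table holds 1 signal per probe set and array, an intensity on a linear scale. MAS5 and affy are named per the submitters' processing notes, without version or role. The table has 45101 rows, of which 64 are controls and were left out. Gene names came from the platform annotation. Groups came from the labels, and per the labels the replicates are separate animals.

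Signals were taken as log2(signal + 16), and the genotypes were compared in limma (version 3.58.1, under R version 4.3.3; lmFit, eBayes with intensity trend, 2 residual and 4.32 prior degrees of freedom). P-values were adjusted by Benjamini-Hochberg over all 45037 probe sets, with a threshold of 0.05. The script was checked on simulated data. For the gene level, the probe set of highest mean among those at or above the 40th percentile stood for the gene, which kept 48 of the 78 members, for 35 genes. Of these 48, 2 had both wild type signals and 1 both bitransgenic signals under 57.0. Values are given for members called over all probe sets, at the gene level or with replicate number as a block, for the 12 largest differences without overlap past the filter, and for a list of skin chemokines. Ccl19 of that list had no probe set of its own. Members, lists and tests were chosen with earlier results of these data known.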

Additional observations from a re-analysis of the deposited data

How the results depend on the processing

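No array group is large enough for single-array outliers to be judged, and depth here means signal over background: 20 of the 78 members were dim on all 4 arrays. Of 33 named member probe sets, 3 changed sign under another setting listed for all probe sets, judged on rounded values. Ccr2 (probe set A), which is not counted among them, went from 1.01 to -0.00 without bitransgenic replicate 2. Leaving out wild type replicate 1 turned Ccl11 from -0.15 to 0.13, and leaving out bitransgenic replicate 1 turned it to 0.02. Leaving out wild type replicate 2 turned Ccl28 from 0.07 to -0.34 and Cxcr2 from 0.01 to -0.19, and quantile normalization turned Cxcr2 to -0.01. The number of members called higher over all probe sets was 0, and became 1 with a pseudocount of 64 (Ccl20), 3 with dim probe sets left out, 2 with equal array medians (Ccl20 and Cxcl16) and 0 to 1 when single arrays were left out. Over the whole array, 20 higher and 58 lower calls became 56 and 150 with dim probe sets left out, 42 and 94 with equal medians, 0 and 0 without the intensity trend, and 0 to 13 and 0 to 80 without single arrays. The member median of 0.72 was 0.92 and 0.40 with a pseudocount of 1 and 64, 0.80 with equal medians and 0.62 to 0.93 without single arrays.

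At the gene level 6 members were called, 7 by the mean of a gene's probe sets and 5 without suffixed probe sets. Settings added after seeing the data gave 6 with a pseudocount of 1 or 64, quantile normalization or no trend, 7 with equal medians and 3 with dim genes kept. Over all genes, higher calls in these settings ran from 52 to 116. The number of members called also varied when single arrays were left out, which leaves 1 animal in a group. The causes were not tested.

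The labels do not say what a replicate number marks. With the replicate block, 8 member probe sets were called higher (Ccl20, both of Cxcl16, Ccl2, Ccl1, Ccr1, Ccl6 and Cxcl1 probe set A), with 138 higher and 300 lower on the whole array. At the gene level it called 9 of 35 members higher and 1, Cxcr4, lower, where 207 and 438 of all 13070 genes were. Pathway genes called were then 1 higher (Tslp) and 1 lower (Dpp4), and with dim probe sets left out 1 lower (Dpp4). Deviations of same-numbered arrays correlated at 0.23 over all probe sets, 0.34 over those past the filter and 0.13 over the members.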
